A study of Mus musculus with 8 samples.

Results

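A set of 10 genes that MLL fusion proteins are known to switch on in leukaemia, or that work beside HOX proteins in blood progenitors, was followed by symbol through the 4 deposited tables: Meis1, Pbx3, Mef2c, Eya1, Six4, Jmjd1c, Runx2, Mecom, Zfp521 and Sox4. They are 10 of 17553 genes, and their 16 RefSeq transcripts are 16 of 19353. Bone marrow cells depleted of mature lineages (Lin-) came from C57BL/6 mice that the labels give as Ring1a-/- and Cdkn2a-/- in every group. Cdkn2a is the INK4A/ARF tumour suppressor locus, and Ring1a (gene Ring1) and Ring1b (gene Rnf2) encode interchangeable RING-type ubiquitin ligases of Polycomb repressive complex PRC1. Cells were not transduced (NT) or transduced with HOXA9, PML-RARa or MLL-AF9, and were treated for 72 h with ethanol (control, labelled Ring1b WT) or 4-hydroxytamoxifen (OHT, labelled Ring1b KO). Each of the 8 combinations of context and treatment is 1 library. NT values come from a table that heads its columns as empty, and whether those cells carried an empty vector is not stated. The labels used here name neither the Cre driver nor the number of mice or cultures.

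MLL-AF9 joins the DNA-binding end of the histone methyltransferase MLL to AF9, a subunit of elongation complexes, and keeps genes such as the Hoxa cluster and Meis1 transcribed. MEIS and PBX proteins are TALE homeodomain factors that bind DNA together with HOX proteins, so HOXA9 and MEIS1 are often active as a pair in myeloid leukaemia. PML-RARa is the retinoic acid receptor fusion of promyelocytic leukaemia. PRC1 holds many developmental genes silent, and MLL and a form of PRC1 each carry a domain that binds unmethylated CG dinucleotides.

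Promoters are shown for Meis1 and Mecom, the pair of members whose levels were most alike over the 8 libraries, and for Runx2 as a window poor in CG, because CG dinucleotides are what those domains bind. RefSeq windows of 300 bases (250 before to 50 after a start, build GRCm38.p6, 5′ to 3′ on the gene's strand) were found for 7 of the 10 members, 12 windows in all. Capitals mark CG dinucleotides. The first Mecom window lies at chr3:30509710-30510009, minus strand, and the second, 497 kb nearer the gene's end, at chr3:30013155-30013454. Meis1 lies at chr11:19018920-19019219 and Runx2 at chr17:44814578-44814877, both on the minus strand.
Meis1: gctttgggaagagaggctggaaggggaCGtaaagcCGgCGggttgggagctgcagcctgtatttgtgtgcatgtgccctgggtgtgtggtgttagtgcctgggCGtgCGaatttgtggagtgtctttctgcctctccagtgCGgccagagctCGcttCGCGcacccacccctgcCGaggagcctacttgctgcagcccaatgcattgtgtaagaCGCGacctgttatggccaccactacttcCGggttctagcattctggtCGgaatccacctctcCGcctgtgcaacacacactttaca
Mecom, first window: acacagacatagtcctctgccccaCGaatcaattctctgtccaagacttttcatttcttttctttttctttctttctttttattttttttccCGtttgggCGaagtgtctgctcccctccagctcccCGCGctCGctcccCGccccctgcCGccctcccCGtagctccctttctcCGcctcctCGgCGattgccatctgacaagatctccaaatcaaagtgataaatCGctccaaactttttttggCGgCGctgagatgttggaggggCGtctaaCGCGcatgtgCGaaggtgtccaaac
Mecom, second window: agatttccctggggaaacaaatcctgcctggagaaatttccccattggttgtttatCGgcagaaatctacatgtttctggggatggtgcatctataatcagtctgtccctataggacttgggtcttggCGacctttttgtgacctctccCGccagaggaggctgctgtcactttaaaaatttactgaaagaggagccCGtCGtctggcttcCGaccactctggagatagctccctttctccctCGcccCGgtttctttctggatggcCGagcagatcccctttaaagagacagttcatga
Runx2: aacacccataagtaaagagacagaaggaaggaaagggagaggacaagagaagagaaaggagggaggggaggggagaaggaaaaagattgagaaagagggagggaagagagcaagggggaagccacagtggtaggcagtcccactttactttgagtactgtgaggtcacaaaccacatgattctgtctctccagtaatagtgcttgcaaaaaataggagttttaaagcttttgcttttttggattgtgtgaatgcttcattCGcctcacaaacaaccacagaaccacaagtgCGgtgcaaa

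Meis1 held 15 CG dinucleotides, and the Mecom windows held 19 and 9, against a median of 7 over 32851 RefSeq windows of the same length. The Runx2 window held 2, and 85.9% of all windows hold at least as many. Across the 12 member windows the count ran from 1, in a Mef2c window, to 47, in a Jmjd1c window that 98.6% of windows fall below. The 6-letter core bound by MEIS proteins, TGACAG, searched on both strands, was present in 2 of the 12 windows (1 of Mecom, 1 of Jmjd1c) and in 19.2% of all windows. These counts describe the letters alone, since no binding was measured here.

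Library totals ran from 4226751 to 6998223 reads, and each value is the authors' normalised read count of a RefSeq transcript. Rnf2, counted over its whole transcript, stood at 666 to 990.4 over the 8 libraries (mean OHT over control log2 ratio -0.04 ± 0.14, limma SE over 4 contexts, limma adjusted p = 0.85). Each SE given here is limma's, drawn towards the variance of all tested transcripts, and is not the plain SE of the context ratios. Reads were present at Cdkn2a (18.0 to 67.2) in every library. Ring1, labelled as deleted throughout, had 109 to 191 in control and 23.8 to 77.8 in OHT libraries and fell with OHT (mean log2 ratio -1.81 ± 0.33, limma SE over 4 contexts, limma adjusted p = 0.040). Which exons are removed is not in the labels, so these counts check no label and the libraries are called control and OHT. For the labelled cells, the progenitor factor Gata2 stood at 536 to 4618, Cd34 at 10.6 to 117 and Kit, the stem cell factor receptor, at 1.36 to 34.5 on the transcript listed. Markers of maturing cells were abundant as well, such as the neutrophil peroxidase Mpo (1065 to 4588) and the mast cell protease Cpa3 (281 to 3301).

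Of the 16 member transcripts, 4 stayed under a value of 20 in every library, and 2, those of Pbx3 and Sox4, were at or above 20 in all of them. Several RefSeq transcripts were listed for 5 of the members. Such transcripts drew few reads in general: the median was 2.63 reads per kb, and 33.6 where a gene had 1 transcript only. The values of Mef2c, Eya1, Jmjd1c, Runx2 and Mecom may therefore fall short of the gene's whole output. With 1 library per group there is no test within a context or between contexts. There, a difference was called when it reached 2-fold on the log2(value + 1) scale and the higher of both libraries stood at 20 or more, and intervals are 95% exact intervals for a ratio of 2 read counts, which cover counting error only.

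In MLL-AF9 control cells, 7 of the 10 genes stood at least 2-fold above NT control cells: Meis1, Pbx3, Six4, Eya1, Jmjd1c, Mef2c and Runx2. Mecom and Zfp521 stood at least 2-fold below, and Sox4 was 1.42-fold higher (1.18 to 1.71). In transcripts, 8 of the 11 that reached a value of 20 were higher and 2 lower, where 8.59% of all transcripts were higher and 10.7% lower by the same rule. Of the 8, 5 were under 20 in NT and so entered through the MLL-AF9 library alone. Over these 11 the median difference was 1.44 on the log2 scale, against -0.01 over all transcripts that reached 20. In the other contexts, 2 were higher and 3 lower among 7 in HOXA9 (background 11.6% and 7.30%), and 0 were higher and 2 lower among 8 in PML-RARa (12.4% and 8.28%). The 3 lower in HOXA9, and Zfp521 in MLL-AF9, were under 20 there and so entered through the NT library alone. The 3 comparisons share the NT control library.

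**Figure D1:**
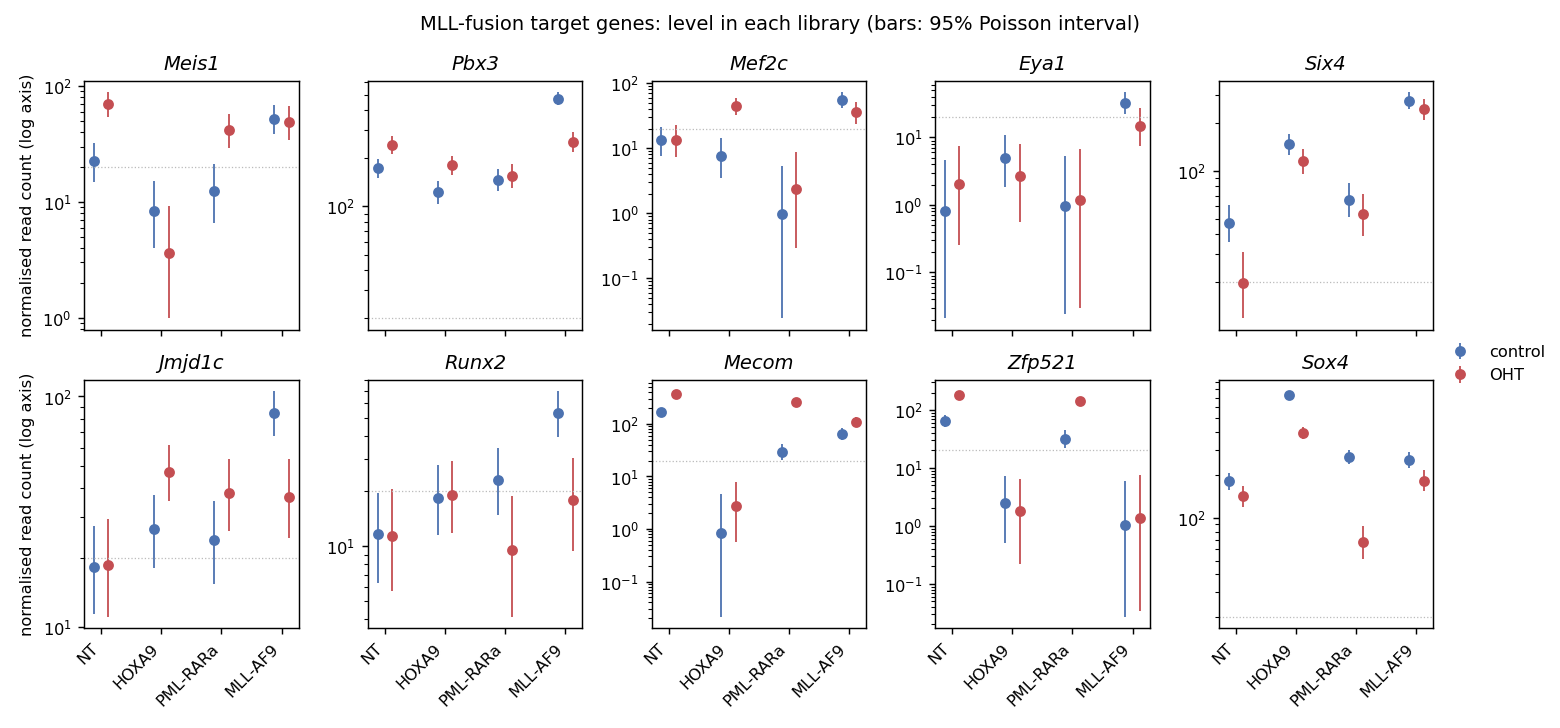
Normalised read count (log axis) of the transcript with most reads of each member, by context, in control (blue) and OHT (red) libraries; each point is 1 library and bars are 95% Poisson intervals. The dotted line marks a value of 20. Pbx3, Mef2c, Eya1, Six4, Jmjd1c and Runx2 were highest in the MLL-AF9 control library, while Meis1, Mecom and Zfp521 were highest in the NT OHT library.

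The TALE factor Meis1 (NM_001193271) had control values of 22.3 (NT), 8.30 (HOXA9), 12.4 (PML-RARa) and 51.9 (MLL-AF9). With OHT they were 69.6, 3.62, 41.7 and 49.1 in the same order. Both HOXA9 libraries were thus the lowest of the 8, below every library of the other contexts. The HOXA9 and PML-RARa control values rest on 10 and 13 reads, and their 95% Poisson intervals overlap (3.98 to 15.3 and 6.62 to 21.3). MLL-AF9 control cells stood 2.32-fold above NT (1.42 to 3.86), and HOXA9 control cells were lower than NT by 2.69-fold (1.26 to 6.23). With a pseudocount of 10 these log2 differences were 0.94 and -0.82, short of the 2-fold call. Between the OHT libraries the MLL-AF9 value was 0.706 times that of NT, with an interval of 0.457 to 1.07 that includes no difference.

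Pbx3 (NM_016768), a TALE partner of both HOX and MEIS proteins, had control values of 173 with NT, 123 with HOXA9, 146 with PML-RARa and 470.1 with MLL-AF9. Its OHT values were 241, 181, 156 and 252. The MLL-AF9 control library stood apart from the other 7, which lay between 123 and 252, and was 2.72-fold above NT (2.30 to 3.22). Between the OHT libraries the ratio was 1.05 (0.858 to 1.28). Per kb of transcript in the MLL-AF9 control library, Pbx3 stood at 182, Sox4 at 53.4, Six4 at 43.0, Meis1 at 16.2 and Zfp521 at 0.171, the 5 members with a single transcript.

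Six4 (NM_011382), a homeodomain factor of the sine oculis family that acts with EYA coactivators, had control values of 47.2 with NT, 147 with HOXA9, 66.0 with PML-RARa and 275 with MLL-AF9. With OHT it stood at 19.7, 115, 53.6 and 244. Contexts did not overlap in HOXA9 and MLL-AF9: each library of these contexts was above all 4 of NT and PML-RARa. The ratio to NT was 3.12 (2.30 to 4.28) in HOXA9 and 5.84 (4.37 to 7.92) in MLL-AF9 control cells, and 12.4 (7.69 to 21.0) between the MLL-AF9 and NT libraries with OHT.

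Eya1, the phosphatase and coactivator that pairs with Six4 and its relatives, was close to undetected outside MLL-AF9. Its transcript NM_010164 had 31 reads (a value of 32.8) in MLL-AF9 control cells and 11 (15.0) with OHT, against 1 to 6 reads in the other 6 libraries. The ratio to NT was 39.7 (6.61 to 1617) and rests on 1 read in NT, the lowest entry of the tables, which may stand for 0. NM_001252192 was also highest there, with 9 reads in the MLL-AF9 control library and 1 or 2 in the others.

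Jmjd1c, a JmjC-domain protein related to histone demethylases, had 84.7 for NM_001242396 in MLL-AF9 control cells, and 18.2, 26.6 and 23.9 in NT, HOXA9 and PML-RARa. Its OHT values were 18.7 with NT, 47.1 with HOXA9, 38.1 with PML-RARa and 36.8 with MLL-AF9. The MLL-AF9 control library was the highest of the 8 for this transcript and also for NM_207221 (24.4, against 5.20 to 20.8). Ratios to NT were 4.65 (2.87 to 7.84) and 2.68 (1.25 to 6.08) for these transcripts.

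Mef2c, a MADS-box factor of lymphoid and myeloid progenitors, had 55.1 for NM_001170537 in MLL-AF9 control cells, against 13.2 in NT, 7.47 in HOXA9 and 0.957 (1 read) in PML-RARa. The OHT values were 35.5 in MLL-AF9, 13.5 in NT, 44.3 in HOXA9 and 2.38 in PML-RARa. Both PML-RARa libraries were the lowest. The HOXA9 library was above NT among OHT libraries (3.28-fold, 1.75 to 6.60). Among controls the HOXA9 ratio to NT was 0.564 (0.220 to 1.36) on 9 and 16 reads, with an interval that includes no difference. The second transcript, NM_025282, had 1 to 3 reads in every library.

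Runx2, the RUNX factor best known from bone formation, had 52.9 for NM_001145920 in MLL-AF9 control cells, 11.6 in NT, 18.3 in HOXA9 and 23.0 in PML-RARa. With OHT the values were 17.7, 11.4, 19.0 and 9.52 in the same order, with HOXA9 highest for this transcript. NR_073425, listed by RefSeq as non-coding, lay between 8.14 and 25.9 in the 8 libraries, highest in the MLL-AF9 OHT library, and NR_073392 had 1 or 2 reads. Summed over the 3 transcripts, MLL-AF9 was the highest context both in control (72.0) and in OHT libraries (45.02, against 19.0 to 29.0). The MLL-AF9 control ratio to NT was 4.57 (2.49 to 8.95) for NM_001145920 and 1.67 (0.766 to 3.75) for NR_073425.

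**Figure D2:**
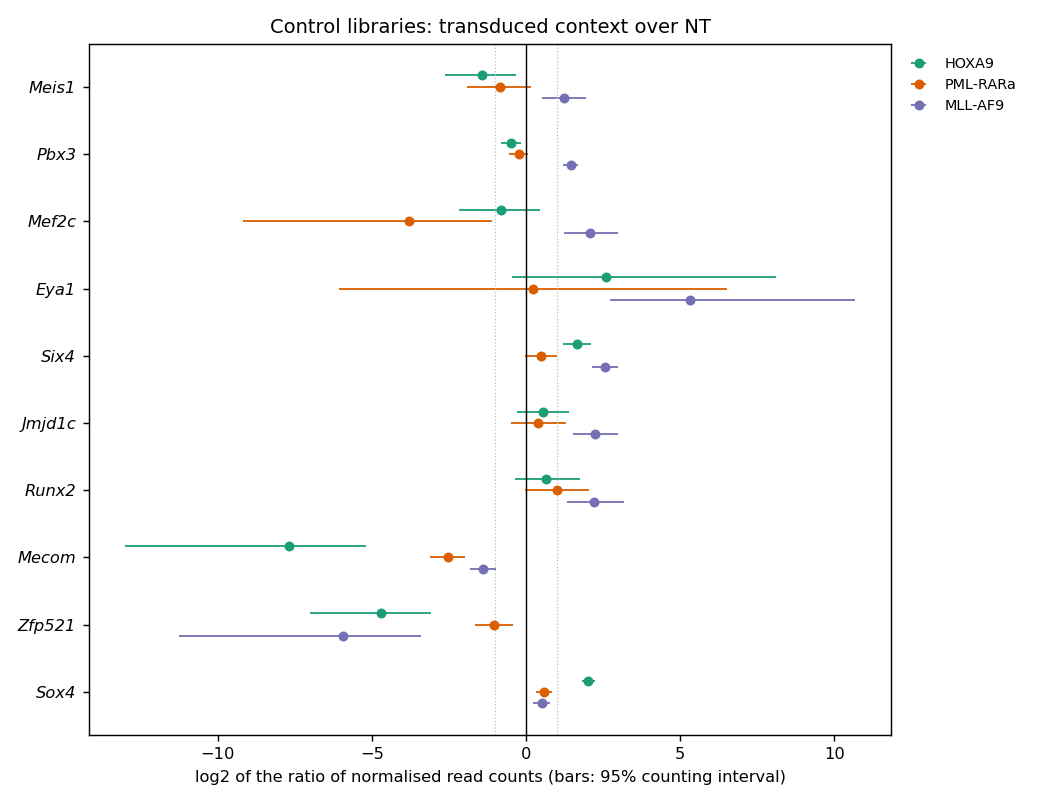
Log2 ratio of normalised read counts, transduced over NT control library, for the transcript with most reads of each member; points are single pairs of libraries and bars are 95% counting intervals, with dotted lines at 2-fold. MLL-AF9 intervals lie above no change for 8 of the members shown and below it for Mecom and Zfp521.

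Mecom, whose product EVI1 is a zinc finger regulator of haematopoietic stem cells, went the other way. NM_007963 had control values of 171 with NT, 0.830 (1 read) with HOXA9, 29.7 with PML-RARa and 65.7 with MLL-AF9. OHT values were 379 with NT, 2.71 (3 reads) with HOXA9, 256 with PML-RARa and 109 with MLL-AF9. Both HOXA9 libraries thus had almost no Mecom reads, and the control ratio HOXA9 to NT was 0.00485 (0.000122 to 0.0273). NT control cells were above MLL-AF9 by 2.61-fold (1.96 to 3.52) and above PML-RARa by 5.77-fold (3.95 to 8.72). NM_021442 had 1 or 2 reads in all 8 libraries.

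Zfp521 (NM_145492), a zinc finger cofactor of immature haematopoietic cells, was detected in NT and PML-RARa. It had control values of 64.5 and 31.6 there, against 2.49 (3 reads) in HOXA9 and 1.06 (1 read) in MLL-AF9. With OHT it had 182 and 140.4 in NT and PML-RARa, and 1.81 and 1.36 in HOXA9 and MLL-AF9. The 4 libraries of HOXA9 and MLL-AF9 had 1 to 3 reads each and did not overlap with the other 4, which had 33 to 175.

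Sox4, an HMG-box factor of progenitors and leukaemias, was highest in HOXA9 cells. NM_009238 had control values of 180.4 with NT, 728 with HOXA9, 269 with PML-RARa and 256 with MLL-AF9, and OHT values of 141, 395, 67.8 and 183. Both HOXA9 libraries were above the other 6. The HOXA9 control ratio to NT was 4.04 (3.48 to 4.70), and the OHT ratio 2.80 (2.30 to 3.42). The transcript held at most 0.183 reads per base, the most of any member transcript with a known length.

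Marker genes of several cell types also differed between the contexts. Summed over the control libraries, 5 mast cell genes had 6656 in NT and 5871 in PML-RARa, against 1782 in HOXA9 and 428 in MLL-AF9, and 7 megakaryocyte genes had 6295 and 4204 against 1320 and 594. Stem and progenitor genes (7 genes) had 5314 and 5256 against 2255 and 1027. Gata2 (3379 in NT) and Tal1 (1719 in NT) made up most of the last sum, while Flt3 had 15.7 with NT, 109.6 with HOXA9, 51.7 with PML-RARa and 75.2 with MLL-AF9. Of the megakaryocyte sum in PML-RARa control cells, Itga2b alone held 3435 of 4204. Pf4 (94.7), Ppbp (26.8) and Vwf (110) were lower there than in HOXA9 control cells (128, 118 and 112). Vwf was also below its MLL-AF9 value (157). Itga2b, Gp9, Gp5 and Gp1ba were higher in PML-RARa than in HOXA9. Zfp521 was highest in NT and PML-RARa among the control libraries, whereas Mecom was lower in PML-RARa (29.7) than in MLL-AF9 (65.7). The part of cell makeup in their levels was not tested, and in bulk RNA fewer cells of a type and less RNA per cell cannot be told apart. Stromal markers (7 genes) summed to 47.6 to 80.5, with 8 of 10 transcripts under 20 in every library. B lymphoid markers (5 of 6 listed) summed to 22.6 to 219, with 4 of 5 transcripts, all but Cd79b, under 20. Plasmacytoid dendritic markers (2 of 3 listed) summed to 4.96 to 13.3. T and NK cell markers summed to 19.1 to 123 in control and 303 to 1666 in OHT libraries, with 4 of 5 transcripts under 20 in all. The remaining transcript, Il7r, held nearly all of the OHT sums (1658 of 1666 in MLL-AF9). Erythroid markers (3 of 5 listed) summed to 49.8 to 384 over the 8 libraries.

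**Figure D3:**
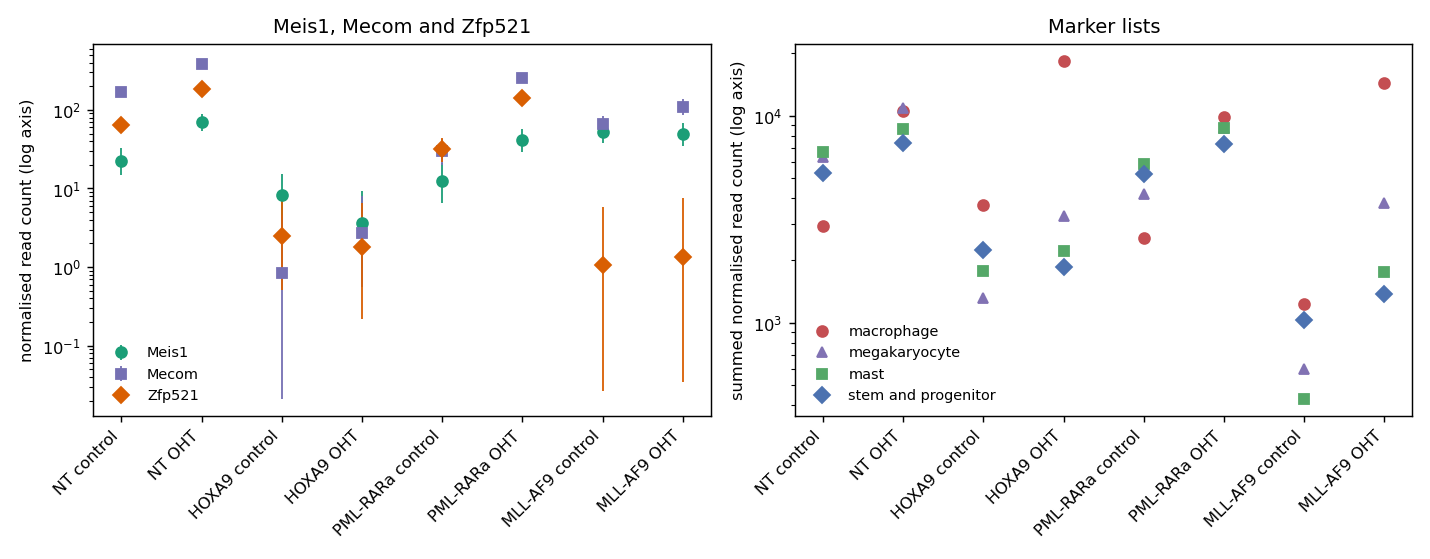
Left, normalised read counts (log axis) of Meis1, Mecom and Zfp521 in the 8 libraries with 95% Poisson intervals; right, summed normalised read counts (log axis) of 4 marker lists in the same libraries. Mast and stem and progenitor sums were higher in every NT and PML-RARa library than in any HOXA9 or MLL-AF9 library, as was Zfp521, while macrophage sums were higher in every OHT library than in any control library.

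OHT was then set against control within each context, to ask how the members stood after the treatment meant to remove Ring1b. Meis1, Mecom and Zfp521 were higher with OHT in both NT and PML-RARa, whereas in MLL-AF9 no member was 2-fold higher and transcripts of Eya1, Jmjd1c and Runx2 were lower. In NT, 3 of the 6 transcripts that reached 20 were at least 2-fold higher (background 13.5%) and 1 lower (8.64%). In PML-RARa 3 of 8 were higher (8.83%) and 2 lower (13.5%), in HOXA9 1 of 6 was higher (9.04%) and 0 lower (6.10%), and in MLL-AF9 0 of 11 were higher (14.5%) and 4 lower (15.6%). The 4 lower transcripts in MLL-AF9 belong to 3 genes, and 3 of them were under 20 with OHT. Meis1 in PML-RARa (12.4) and Mef2c in HOXA9 (7.47) were under 20 in control. Six4 in NT (19.7) and Runx2 in PML-RARa (9.52) were under 20 with OHT. Each of these entered through its higher library alone.

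**Figure D4:**
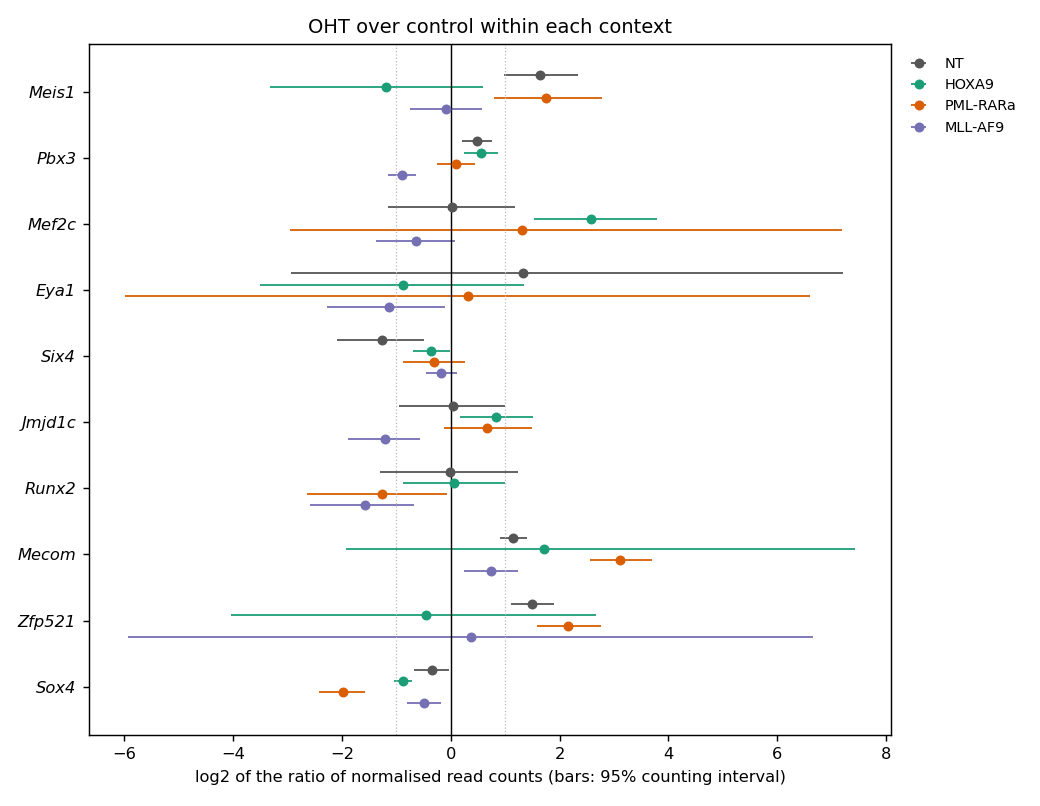
Log2 ratio of normalised read counts, OHT over control library of the same context, for the transcript with most reads of each member; points are single pairs of libraries, bars are 95% counting intervals and dotted lines mark 2-fold. Meis1, Mecom and Zfp521 lie above no change in NT and PML-RARa, and Sox4 below it in all 4 contexts.

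Meis1 was 3.12-fold higher with OHT in NT (1.97 to 5.07) and 3.35-fold in PML-RARa (1.73 to 6.90). In MLL-AF9, where its control level was highest, the ratio was 0.947 (0.598 to 1.49), and in HOXA9 it rested on 10 and 4 reads. Mecom was 2.21-fold higher in NT (1.86 to 2.64), 8.63-fold in PML-RARa (5.90 to 13.0) and 1.66-fold in MLL-AF9 (1.18 to 2.35), while HOXA9 cells had 1 and 3 reads. In the authors' deposited table of PML-RARa, Mecom had a p-value of 0.0069 for 1 library against 1 library. It was the sole member p-value under 0.05 among 64 in the 4 tables. Over all transcripts the share under 0.05 was 2.32% in PML-RARa and ran from 1.82% to 4.16% over the 4 tables. Zfp521 was 2.82-fold higher in NT (2.15 to 3.73) and 4.45-fold in PML-RARa (3.0 to 6.76), and stayed at 1 to 3 reads in HOXA9 and MLL-AF9.

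The members that were high in MLL-AF9 control cells split under OHT. Their ratio to NT and their OHT ratio in MLL-AF9 share the MLL-AF9 control library, so these results are not independent. Runx2 NM_001145920 stood at 0.335 times its control value in MLL-AF9 (0.167 to 0.626), Jmjd1c NM_001242396 at 0.435 (0.270 to 0.680), Eya1 NM_010164 at 0.457 (0.207 to 0.935) and Pbx3 at 0.537 (0.450 to 0.639). For the non-coding Runx2 NR_073425 the ratio was 1.44 (0.709 to 2.95), and the summed Runx2 level of 72.0 in control and 45.02 in OHT cells was not 2-fold apart. Mef2c was at 0.644 (0.386 to 1.05) and Six4 at 0.887 (0.729 to 1.08), with intervals that include no difference. The interval of Six4 and those of Runx2, Jmjd1c and Pbx3 do not overlap. Outside MLL-AF9 the order was different. Mef2c was 5.93-fold higher with OHT in HOXA9 (2.88 to 13.7), Pbx3 1.39-fold higher in NT (1.15 to 1.69) and 1.47-fold in HOXA9 (1.18 to 1.83), and Six4 lower in NT by 2.39-fold (1.40 to 4.25; -0.94 on the log2 scale with a pseudocount of 10, short of the call).

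Sox4 was lower with OHT in every context. The ratio was 0.783 in NT (0.628 to 0.975), 0.543 in HOXA9 (0.483 to 0.610), 0.252 in PML-RARa (0.186 to 0.336) and 0.713 in MLL-AF9 (0.573 to 0.885). Each of the 4 intervals lies below no difference, and the 2-fold call was reached in PML-RARa. The sum of 7 neutrophil markers was also lower with OHT in each context, with 11164 and 4757 for NT, 7993 and 6273 for HOXA9, 5896 and 2417 for PML-RARa, and 9689 and 8606 for MLL-AF9. Single genes differed. In MLL-AF9, Mpo, Elane, Prtn3 and S100a9 were lower, while Ltf (294 to 1169), S100a8 (541 to 697) and Camp (676 to 692) were higher. Ltf was also higher in PML-RARa (206 to 294), and none was higher in NT or HOXA9. None of the 7 passed limma (4 at an unadjusted p under 0.05, 0 called by edgeR and 4 by DESeq2; list median -0.99 on the log2 scale), and their part in the Sox4 ratios was not tested.

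Across the 4 contexts, taken as replicates in limma with the context as a block, none of the 9 tested member transcripts (9 genes; Eya1 was too low) passed an adjusted p of 0.05, where 13.9% of all tested transcripts did (6.40% higher and 7.48% lower). At an unadjusted p under 0.05 there were 2, Mecom and Sox4. Mecom had a mean log2 ratio of 1.49 ± 0.43 (limma SE over 4 contexts, limma adjusted p = 0.077) and was higher in 4 of 4 contexts, of which HOXA9 rests on 1 and 3 reads (ratio 3.27, 0.263 to 172). Sox4 had -0.92 ± 0.31 (limma adjusted p = 0.10) and was lower in 4 of 4. edgeR on the recovered reads called none of the 9 (3 at an unadjusted p under 0.05). DESeq2 called 2, Mecom (adjusted p = 0.0075) and Sox4 (adjusted p = 0.037); over the 11 alternatives the adjusted p ran from 0.0075 to 0.63 for Mecom and from 0.037 to 0.36 for Sox4. Meis1 had 0.54 ± 0.53 (limma adjusted p = 0.48), with 2 contexts higher and 2 lower; its mean was 0.17 without the PML-RARa pair, 0.19 without NT and 1.06 without HOXA9. Without the PML-RARa pair Mecom had 0.96 and Sox4 -0.57. Pbx3 had a mean of 0.06 ± 0.28 (limma adjusted p = 0.90). The other 5 had limma adjusted p from 0.15, for Six4, to 0.89, for Jmjd1c. The median over the 9 was 0.08, against -0.03 over all 10599 tested. Calls over all transcripts needed the full set of pairs: 26 were left without the NT pair and 0 when a pair of the other 3 contexts was left out, so the limma calls given for other genes and for markers were lost when 1 of those 3 pairs was left out.

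Of the 10 macrophage markers 9 rose with OHT by limma across the contexts, where 6.40% of all tested transcripts did. Their summed level ran from 1230 to 3684 in control libraries and from 9812 to 18408 in OHT libraries, without overlap. Of the 7 megakaryocyte markers 3 rose by limma. The sum of the 7 went from 6295 to 10872 in NT, 4204 to 8769 in PML-RARa, 1320 to 3276 in HOXA9 and 594 to 3793 in MLL-AF9. Gp1ba was lower in NT (866 to 592), HOXA9 (63.1 to 32.6) and MLL-AF9 (72.0 to 23.2), and Itga2b in HOXA9 (857 to 808). The rest were higher in every context. Mast cell sums went from 6656 to 8587 in NT, 5871 to 8701 in PML-RARa, 1782 to 2218 in HOXA9 and 428 to 1754 in MLL-AF9. In HOXA9, Cpa3 (1405 to 1336) and Ms4a2 NM_001276330 (3.32 to 1.81) were lower, and the other mast cell transcripts were higher in every context. Of the 6 mast cell transcripts 1, Mcpt2, rose by limma. The part of these shifts in the OHT ratios of Meis1, Mecom and Zfp521 was not tested.

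The OHT libraries were also set against the NT OHT library. In MLL-AF9, 3 of 9 transcripts that reached 20 were higher (background 9.03%), namely Six4, Mef2c (2.63-fold, 1.30 to 5.57) and Runx2 NR_073425 (2.49-fold, 1.10 to 6.01), and Mecom and Zfp521 were lower (13.3%). All 3 that were higher stood under 20 in NT and so entered through the MLL-AF9 library alone. In HOXA9 5 of 9 were higher (12.9%), Sox4, Six4 (5.82-fold, 3.58 to 9.99), Mef2c (3.28-fold, 1.75 to 6.60) and both Jmjd1c transcripts, and 3 were lower (10.2%), Meis1, Mecom and Zfp521. Of the 5, all but Sox4 were under 20 in NT and entered through the HOXA9 library alone. The 3 that were lower, and Zfp521 in MLL-AF9, entered through the NT library alone. Meis1 had 4 reads in HOXA9 and 67 in NT. In PML-RARa, Six4 was the 1 of 7 higher (4.23%; 2.71-fold, 1.55 to 4.91) and Sox4 the 1 lower (5.83%; 0.480, 0.346 to 0.659). Six4 entered there through the PML-RARa library alone. These comparisons share the NT OHT library.

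Other genes of the pathway came from 5 lists, of which the TALE list and the list of sine oculis, Eya and Dach genes also hold members. In the list of other MLL-fusion targets (16 of 18 genes matched), 8 of 18 transcripts that reached 20 were at least 2-fold above NT in MLL-AF9 control cells and 3 lower, the largest on the log2(value + 1) scale being Hoxa10 (NM_008263, 1.65 in NT and 313 in MLL-AF9), Hoxa10 NM_001122950 (0.827 and 48.7) and Hoxa5 (38.9 and 566). Both Hoxa10 values in NT are 1 or 2 reads. The shares over all transcripts in that comparison were 8.59% higher and 10.7% lower. Of its 16 transcripts tested across contexts with OHT, Zeb2, a zinc finger repressor, rose (1.19 ± 0.14, mean log2 ratio ± SE, limma adjusted p = 0.035) and Myb, a factor of proliferating progenitors, fell (-1.89 ± 0.21, limma adjusted p = 0.035), with a list median of -0.52. That is 1 of 16 in each direction, near the 6.40% and 7.48% of all tested transcripts. Zeb2 went from 1364 to 2569 in NT, 1324 to 3720 in HOXA9, 1111 to 2393 in PML-RARa and 1521 to 3670 in MLL-AF9. Myb went from 72.0 to 19.7, 117 to 48.0, 100.5 to 20.2 and 149 to 31.4 in the same contexts.

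In the TALE family (9 of 11 genes matched), 0 of 7 tested passed across contexts by limma (2 at an unadjusted p under 0.05, 1 called by edgeR and 1 by DESeq2). Among the sine oculis, Eya and Dach genes (11 of 12 matched), 0 of 4 tested passed limma (1 unadjusted, 0 by edgeR and by DESeq2). Among close relatives (11 of 12 matched) Sox12 was 3.52-fold above NT (2.90 to 4.28) in MLL-AF9 control cells. Mef2a rose with OHT across contexts (0.99 ± 0.20, limma adjusted p = 0.044), the 1 of 6 relatives tested to pass. Over all tested transcripts 6.40% rose and 7.48% fell by limma. In lists this short, counts of 0 or 1 say little beside those shares. Of the cofactor complexes through which MLL fusions act (18 of 18 matched), 0 of 15 eligible transcripts were higher and 2 lower in MLL-AF9 control cells, Mllt3, the AF9 gene (57.9 and 19.1), and Aff3 (186 and 90.0), a share near the 10.7% lower over all transcripts, and 0 of 15 tested passed limma with OHT (5 unadjusted, 1 by edgeR and 2 by DESeq2).

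Over the 8 libraries the log2 levels of Meis1 and Mecom had a Pearson r of 0.87 and those of Six4 and Zfp521 one of -0.93, the highest and lowest among the member pairs. These are descriptions over 8 libraries that share contexts and treatments. The transcripts most like Meis1 were Stk11 (r = 0.97, values of 1029 to 1319), BC026585 (0.96) and 1810037I17Rik (0.96). Axin2, a WNT feedback gene, was the transcript most like Zfp521 (r = 0.99), with 170.4, 4.98, 81.3 and 4.24 in the NT, HOXA9, PML-RARa and MLL-AF9 control libraries and 274, 5.43, 200 and 5.46 with OHT. Glrx5 was most like Mecom (0.97), Amotl1 most like Six4 (0.96), Nipbl most like Pbx3 (0.94), Lhpp most like Mef2c (0.97), Zfp277 most like Jmjd1c (0.96) and Id1 most like Runx2 (0.96). These transcripts were picked for the highest r among the 10599 tested, so high values follow in part from the choice. A high r also leaves the size of the differences open, as Glrx5 ran from 473 to 740 and Mecom from 0.830 to 379.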

How the data were processed

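Each of 4 deposited tables covers 1 context with a control and an OHT library. For each RefSeq transcript the authors deposited a signal, the normalised read count or base mean, per the file headers, and further deposited columns give the authors' fold change (a ratio), its log2 and a p-value of 1 library against 1 library. The submitters' processing notes name TopHat, DESeq and mm9; the sources used here give neither the read counter nor its strand setting. Every value was a whole multiple of its library's lowest value (100% within 0.02), which gave whole reads; size factors matched a joint median-of-ratios scaling, so levels were compared across tables. The lowest entry is 1 read, held by 15.1% to 20.0% of transcripts. Symbols turned into dates (36) were restored by RefSeq identifier.

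limma (3.58.1, R 4.3.3, constant prior variance) was fitted on log2(value + 1), with the context as a block, over 10599 transcripts with a mean of at least 20, two-sided, with Benjamini-Hochberg adjustment over all of them. edgeR (4.0.16) and DESeq2 (1.42.0) ran on the recovered reads, with other alternatives: a pseudocount of 10, no filter, centred ratios, no block, each pair left out, TMM scaling and a value of 50. Summing the transcripts of a symbol was added after seeing the data. The fits were tested on simulated data. Named genes are the members, list genes past the test or, up to 3 per list, with the largest 2-fold difference of MLL-AF9 from NT control, and the transcript most correlated with each member (3 for Meis1); some of these are not reported here. Members and lists were chosen with earlier results of these data known. Nothing says that libraries came from separate cultures, so p-values measure the spread between contexts. Lengths came from GENCODE M21.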

Additional observations from a re-analysis of the deposited data

Results flagged for a closer look

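Pbx3 and Jmjd1c had counting intervals on opposite sides of no difference in different contexts when OHT was set against control. The log2 difference of Pbx3 (NM_016768) was 0.48 in NT, 0.55 in HOXA9 and -0.89 in MLL-AF9. That of Jmjd1c (NM_001242396) was 0.80 in HOXA9 and -1.18 in MLL-AF9. With 1 pair of libraries per context the difference between contexts was not tested.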

How the results depend on the processing

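Over all transcripts limma called 1471 (46.1% higher). The count was 354 with no filter on low values (58.5% higher), 2235 by edgeR (57.1% higher) and 3130 by DESeq2 (56.5% higher), and it ran from 0 (when 1 transduced pair was left out, where 3319, 3089 and 2982 had an unadjusted p under 0.05 with HOXA9, PML-RARa and MLL-AF9 left out) to 26 (without NT). No context block left 999 calls and none among the members. Of the members 0 were called in each of these fits but DESeq2's, which called 2 (Mecom and Sox4). Leaving out a pair turned the sign of Jmjd1c, which ran from -0.16 to 0.50, and of Pbx3, which ran from -0.11 to 0.37. The mean ran from 0.07 to 1.08 for Mef2c, 0.46 to 1.27 for Zfp521, -0.91 to -0.38 for Runx2 and -0.62 to -0.27 for Six4. Within contexts, a minimum value of 50 left 0 member calls in HOXA9 (1 before), 3 in PML-RARa (5) and 2 in MLL-AF9 (4), and a pseudocount of 10 left 2 in MLL-AF9. It also ended the Six4 call in NT (-0.94). Against NT, it left 1 call in PML-RARa (2) and ended the calls of Meis1 (0.94) and Jmjd1c NM_207221 (0.85) in MLL-AF9 (8 of 10 left) and of Meis1 in HOXA9 (-0.82; 4 of 5 left). TMM scaling kept each member count within 1.5 times. Low reads limit Eya1, Mef2c and Runx2 most. No paired analysis by replicate number was possible because the labels give no replicate numbers; the context served as the block.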
